A study of Mus musculus with 22 samples.

Results

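The 10 genes described here are immediate early genes that lymphocytes switch on when an antigen receptor signals: the orphan nuclear receptor genes Nr4a1 and Nr4a3, the zinc finger genes Egr1, Egr2 and Egr3, the AP-1 genes Fos, Fosb, Jun and Junb, and the phosphatase gene Dusp2. They were taken by name from the count table, and all 10 were found among its 52636 gene identifiers. Expression was profiled by sequencing of messenger RNA 3' ends in 22 lymphoma libraries from 15 mice of a mixed 129/C57Bl6 background, to compare lymphomas with and without an immunophenotype like that of mantle cell lymphoma (MCL). All the mice carried p53fl/fl and Mb1Cretg/+, so p53 was deleted where Mb1 (Cd79a), a B lineage promoter, drives Cre, and no group without these alleles is analysed here. MCL-like tumours had the genotype R26-Ccnd2tg/tg;p53fl/fl;Mb1Cretg/+, which adds a cyclin D2 transgene, and gave 6 libraries from transplants into NSG mice (from 4 mice) and 4 libraries from primary tumours (4 mice). Non-MCL tumours of the same genotype, here called Ccnd2 non-MCL, gave 2 transplant libraries that came from 1 mouse and 3 primary libraries from 3 mice. Non-MCL tumours of genotype p53fl/fl;Mb1Cretg/+, here called p53-only, gave 7 primary libraries from 6 mice, as replicates 2 and 5 came from 1 mouse. No drug treatment is listed for any of them, and ages are not in the labels used here. NSG hosts lack mature T, B and NK cells of their own. For 6 transplants the title says non-MCL and the immunophenotype field says MCL-like, and the field was followed.

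Immediate early genes are transcribed within minutes of a signal, without new protein synthesis, by transcription factors that are already in the cell. In B cells, crosslinking of the receptor starts Syk and Lyn kinases, calcium release and the Ras to ERK kinase cascade, and ERK acts on factors such as SRF, ELK and CREB at these promoters. NR4A1 is widely used as a reporter of antigen receptor signalling, and the EGR and AP-1 proteins carry the signal on to later genes. Other stimuli, including growth factors, cytokines, and the handling of tissue, switch on several of the same genes.

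Library totals lay between 2693399 and 8146613 counts. Levels are given as CPM (counts scaled to a common library total) for each library, and comparisons use the mouse as the unit. Summed CPM of 9 B cell marker genes lay between 1978 and 8969 in all 22 libraries. In bulk RNA, fewer cells of a type and less RNA per cell cannot be told apart. Summed T cell markers, 9 genes, came to 69.7 to 114 CPM in MCL-like transplants and 297 to 490 CPM in MCL-like primaries, with 52.4 to 154 CPM in Ccnd2 non-MCL primaries and 12.4 to 520 CPM in p53-only tumours. These sums include Lck, which some B cells also use, and so are not a measure of T cells alone. Lck made up 139.7 of 154 CPM in Ccnd2 non-MCL replicate 2 and 51.5 of 64.7 CPM in p53-only replicate 1. In MCL-like primaries it lay between 12.5 and 104 CPM. Summed neutrophil markers, 8 genes, came to 98.1 to 939 CPM in MCL-like primaries. Ccnd2 non-MCL primaries 1 to 3 had 289, 211 and 4185 CPM of them. The p53-only tumours had 19.5 to 4487 CPM, the most in replicate 3. Summed erythroid markers, 8 genes, came to 23540 to 111400 CPM in MCL-like primaries. They came to 4044 to 32490 CPM in Ccnd2 non-MCL primaries and 249 to 38890 CPM in p53-only tumours. In MCL-like against all non-MCL primaries edgeR called 2 of 9 B cell markers higher, Cd37 and Ms4a1, and no marker of the T cell, NK cell, macrophage, neutrophil, erythroid or stromal lists, where it called 5.51% of all genes. The call of Ms4a1 was lost when any 1 of 9 mice was left out, the 4 MCL-like mice among them (edgeR adjusted p up to 0.104), and that of Cd37 in no such fit. At an unadjusted p under 0.05 stood 6 of 9 B cell and 4 of 8 erythroid markers, against 25% of all genes. The tumours whose names start with oTP, a prefix the labels do not explain, were Ccnd2 non-MCL replicate 3 and p53-only replicates 4 to 7, so all MCL-like tumours had names without it.

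The promoters of 4 of the genes are shown because they differed in which tumours had the most of their transcripts: of the 6 primary mice highest in Nr4a1, 5 were also among the 6 highest in Nr4a3, against 4 for Fos and 3 for Dusp2. Each is the 250 bases upstream of a RefSeq transcript start (GRCm38.p6), 5′ to 3′ on the gene's strand. Capitals mark TGACG, or CGTCA where it lies on the other strand, the core of the cyclic AMP response element that CREB family proteins bind.
Nr4a1: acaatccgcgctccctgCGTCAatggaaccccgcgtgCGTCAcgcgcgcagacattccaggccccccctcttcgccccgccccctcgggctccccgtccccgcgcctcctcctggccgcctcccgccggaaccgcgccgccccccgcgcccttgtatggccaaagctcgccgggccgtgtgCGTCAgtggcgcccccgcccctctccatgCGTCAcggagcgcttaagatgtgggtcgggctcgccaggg
Nr4a3: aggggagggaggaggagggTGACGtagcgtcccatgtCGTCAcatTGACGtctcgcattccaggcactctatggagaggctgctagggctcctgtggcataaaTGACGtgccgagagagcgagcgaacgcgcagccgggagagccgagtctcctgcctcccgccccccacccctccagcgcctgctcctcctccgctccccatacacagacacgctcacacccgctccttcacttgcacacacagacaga
Fos: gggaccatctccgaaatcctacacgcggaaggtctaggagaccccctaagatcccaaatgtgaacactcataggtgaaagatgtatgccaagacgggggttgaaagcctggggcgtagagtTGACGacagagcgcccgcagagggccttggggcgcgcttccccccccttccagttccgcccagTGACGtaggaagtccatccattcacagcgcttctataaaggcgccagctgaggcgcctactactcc
Dusp2: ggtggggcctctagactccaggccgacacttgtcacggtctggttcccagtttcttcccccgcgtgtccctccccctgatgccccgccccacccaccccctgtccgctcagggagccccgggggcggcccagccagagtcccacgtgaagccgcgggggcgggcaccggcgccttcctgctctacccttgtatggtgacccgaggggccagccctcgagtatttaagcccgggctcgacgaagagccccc
The Nr4a1 window is at chr15:101266596-101266845 and the Nr4a3 window is at chr4:48045055-48045304. The Fos window is at chr12:85473640-85473889 and the Dusp2 window is at chr2:127335909-127336158, and all 4 lie on the plus strand. TGACG occurs 4 times in the Nr4a1 window, 4 times in the Nr4a3 window and 2 times in the Fos window, and is not found in the Dusp2 window. The 4 genes were picked by their levels, and no relation of these letters to levels was tested. Junb and Fosb, not shown, had 1 TGACG each and shared 5 and 4 of the 6 mice highest in Nr4a1. Jun had 0 and shared 3, and Egr2 had 0 or 2, depending on the window, and shared 6. Of the 10 genes, 8 were matched to a promoter window, and Egr1 and Egr3 were not. Of the 8 matched, 6 held TGACG on either strand in at least 1 window. It was present in 17.8% of all 32851 windows of that length. The EGR motif GCGNGGGCG was found for Nr4a1, Fosb and Dusp2, and in 4.7% of all windows. The AP-1 motif TGANTCA was found for none of the 8, and in 6.75% of all windows. Only these 250 bases were searched. Within them, and among the 8 matched genes, the CArG box bound by SRF was found for Egr2 alone (1.47% of all windows), and TATAAA for Fos alone (12.4%). These are matches of letters and say nothing of binding.

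Depth sets what can be read for each gene. Dusp2 had 17157 counts over the 22 libraries, Junb 5258, Jun 4283, Egr1 2117, Egr3 1570 and Nr4a1 1063. Fosb had 331 counts, Fos 212, Egr2 202 and Nr4a3 113, and none of these 4 reached 10 CPM in any library. Nr4a3 had too few counts for the low-count filter in all 4 comparisons, Egr2 in MCL-like against all non-MCL, and Fos in transplants against primaries. Values of these genes in single libraries rest on a few counts each.

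**Figure D1:**
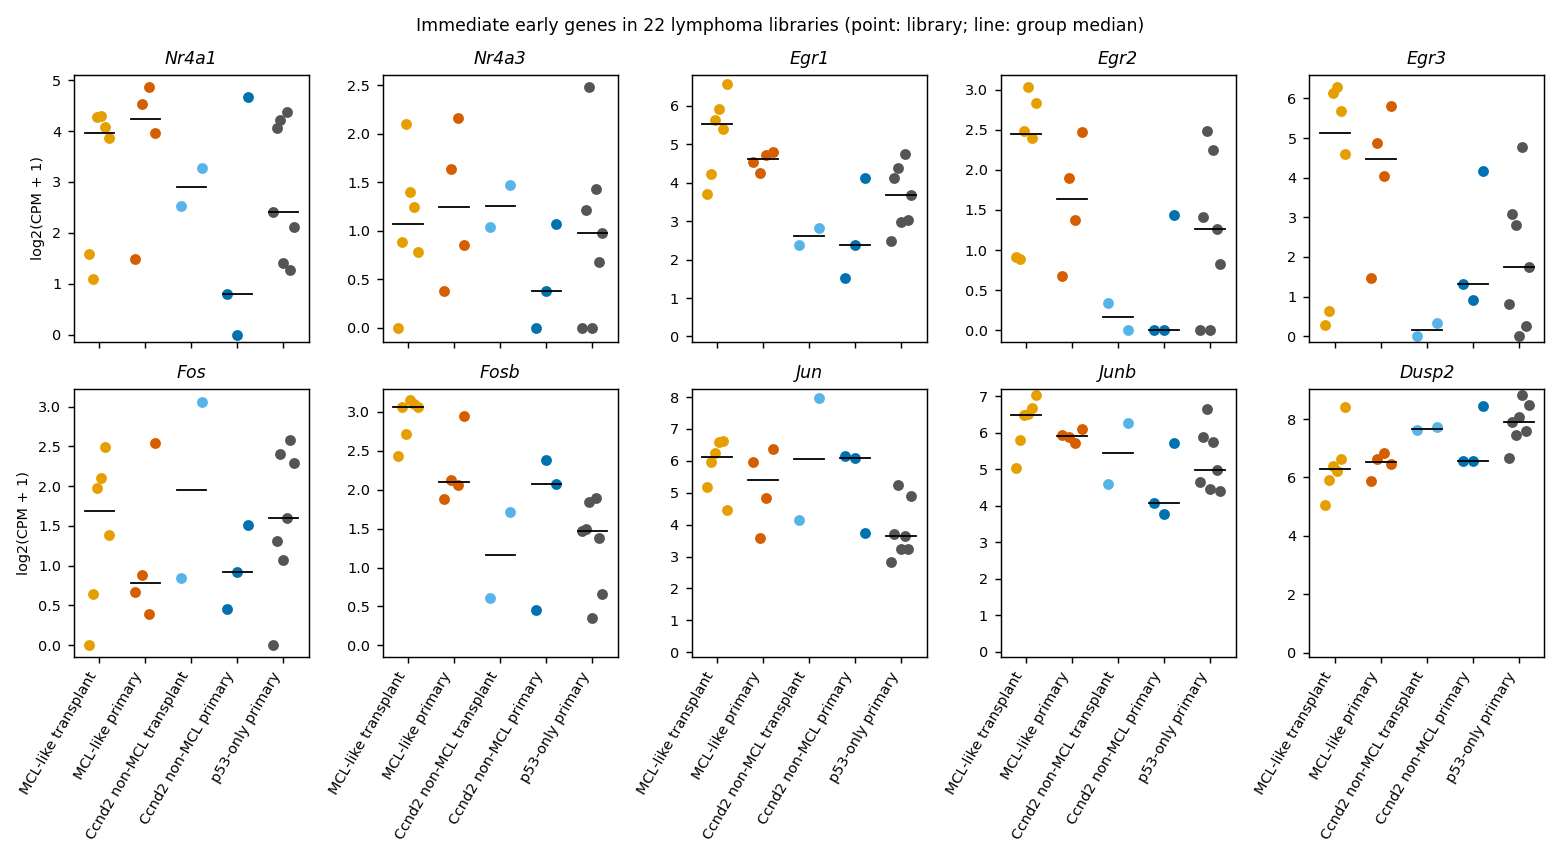
Levels of the 10 genes as log2(CPM + 1) on the y axis, 1 panel a gene, with 1 point for each of the 22 libraries and a line at the group median. Nr4a1 and Egr3 split into high and low libraries within groups, and Dusp2 is above 30 CPM in every library.

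No member passed the test in any of the 4 comparisons made with edgeR's quasi-likelihood test (Benjamini-Hochberg adjusted p under 0.05 over all genes). In MCL-like against Ccnd2 non-MCL primaries, 0 of 9 tested members were called, where 0.308% of 12967 genes were called. At an unadjusted p under 0.05 it was 1 of 9, where 16.8% of all genes were. In MCL-like against all non-MCL primaries 0 of 8 were called, where 5.51% of 12434 genes were, and 3 had an unadjusted p under 0.05, as did 25% of all genes. In Ccnd2 non-MCL against p53-only primaries 0 of 9 were called, where 0 of 12967 genes were, and 1 had an unadjusted p under 0.05, as did 10.3% of all genes. In MCL-like transplants against primaries of the same mice 0 of 8 were called, where 0 of 12020 genes were, and none had an unadjusted p under 0.05, as did 5.46% of all genes. DESeq2 called Dusp2 in the second of these comparisons and no member in the others, and over all genes it called 847, 1698, 119 and 31, in the same order. The members' median log2 fold changes were 1.11, 1.0, -0.43 and 0.49 in these 4 comparisons, in that order, and those of all genes tested were -0.04, -0.07, -0.04 and 0.01. The comparisons of primary tumours share mice and are not independent.

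**Figure D2:**
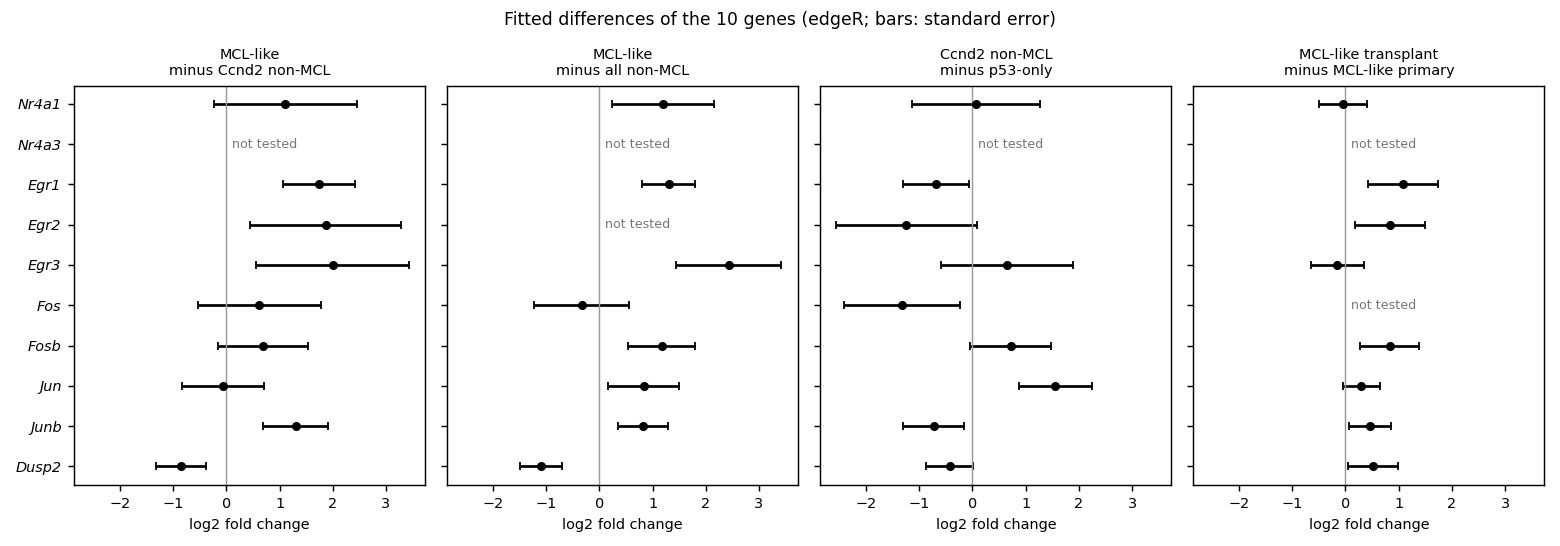
Fitted log2 fold changes (x axis) of the 10 genes in the 4 comparisons, with standard errors as bars; genes under the low-count filter are marked as not tested. Egr1, Egr3 and Nr4a1 have positive values in both comparisons of MCL-like tumours, Dusp2 has negative ones, and no gene passed the adjusted threshold.

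Nr4a1 (chr15:101254269-101274795, plus strand, in GENCODE M21 on GRCm38, as for the genes that follow) encodes an orphan nuclear receptor that is induced by B and T cell receptor signals and restrains the activated cell. It had 2.0, 1.1, 18.4, 18.7, 15.96 and 13.5 CPM in MCL-like transplants 1 to 6, and 1.8, 22.2, 28.2 and 14.5 CPM in MCL-like primaries 1 to 4. It had 4.8 and 8.6 CPM in the Ccnd2 non-MCL transplants, and 0.7, 0 and 24.6 CPM in Ccnd2 non-MCL primaries 1 to 3. The 7 p53-only libraries lay between 1.4 and 19.8 CPM, with a median of 4.3. Each primary group held both low and high tumours, so the groups overlapped. The 0 in Ccnd2 non-MCL replicate 2 allows up to 0.899 CPM (3 counts of that library's total; the exact 2-sided 95% bound is 1.11 CPM), and the 200 counts of replicate 3 give an exact 95% binomial interval of 21.3 to 28.2 CPM, which covers counting error only. MCL-like primaries averaged 17.3 ± 12.3 TMM-scaled CPM (TMM is edgeR's scaling between libraries) and Ccnd2 non-MCL primaries 7.75 ± 12.8 (SD, n = 4 and 3), with a log2 fold change of 1.11 (SE 1.34, edgeR adjusted p = 0.72). That value rests on 1 tumour: without Ccnd2 non-MCL replicate 3 it was 5.59 (adjusted p = 0.143), and over all alternatives the adjusted p lay between 0.0562 and 0.917. Against all 9 non-MCL mice the log2 fold change was 1.19 (SE 0.96, edgeR adjusted p = 0.459), and among tumours without the oTP prefix it was 1.13.

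Nr4a3 (chr4:48045153-48086447, plus strand) encodes a sister receptor with a similar DNA-binding domain. It lay between 0 and 3.3 CPM in MCL-like transplants (median 1.1) and had 0.3, 2.1, 3.5 and 0.8 CPM in MCL-like primaries 1 to 4. It had 0, 0.3 and 1.1 CPM in Ccnd2 non-MCL primaries, and between 0 and 4.6 CPM in p53-only libraries (median 1.0). It was under 5 CPM in all 22 libraries, and 4 libraries had no count.

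Egr1 (chr18:34859823-34864984, plus strand) encodes a zinc finger factor that ERK signalling switches on and that marks cells that have met antigen. It had 12.1, 17.8, 48.8, 59.0, 40.9 and 93.1 CPM in MCL-like transplants 1 to 6, and 22, 17.9, 25.3 and 26.6 CPM in MCL-like primaries 1 to 4. It had 4.2 and 6.1 CPM in the Ccnd2 non-MCL transplants, and 1.9, 4.2 and 16.3 CPM in Ccnd2 non-MCL primaries. The p53-only libraries lay between 4.6 and 25.5 CPM, with a median of 11.9. All 4 MCL-like primaries were above all 3 Ccnd2 non-MCL primaries, and they overlapped the upper p53-only libraries. In that first comparison 2 of 9 tested members, Egr1 and Junb, were higher without overlap, where 7.58% of all genes were. TMM-scaled Egr1 averaged 24.1 ± 3.46 CPM in MCL-like primaries, against 6.99 ± 7.0 CPM in Ccnd2 non-MCL primaries (SD, n = 4 and 3). The log2 fold change was 1.74 (SE 0.68, edgeR adjusted p = 0.208). It was 3.00 with the oTP tumours left out, which leaves 2 Ccnd2 non-MCL mice and calls Egr1 (edgeR adjusted p = 0.0387, with 4.24% of all genes called), and 1.24 among spleen libraries (adjusted p = 0.412). Over all alternatives the adjusted p lay between 0.0387 and 0.412. Against all non-MCL mice, Egr1 averaged 24.8 ± 3.50 CPM in MCL-like primaries, against 9.995 ± 6.93 CPM in non-MCL primaries (SD, n = 4 and 9), with a log2 fold change of 1.30 (SE 0.50, edgeR adjusted p = 0.121).

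Egr2 (chr10:67535475-67542188, plus strand) and Egr3 (chr14:70077203-70082614, plus strand) encode related factors that limit the activation of lymphocytes. Egr3 ranged from 0.2 to 77.0 CPM within MCL-like tumours. It had 0.2, 0.6, 69.2, 77.0, 49.95 and 23.4 CPM in MCL-like transplants 1 to 6, and 1.8, 28.3, 15.5 and 55.3 CPM in MCL-like primaries 1 to 4. It had 0 and 0.3 CPM in the Ccnd2 non-MCL transplants, and 1.5, 0.9 and 16.9 CPM in the Ccnd2 non-MCL primaries. The p53-only libraries lay between 0 and 26.2 CPM, with a median of 2.3. MCL-like replicate 1 was low in its primary and in both of its transplants, whereas the other MCL-like mice were at 15.5 CPM or more in every library. Against all non-MCL mice, Egr3 averaged 25.3 ± 20.6 CPM in MCL-like primaries, against 4.56 ± 6.04 CPM in non-MCL primaries (SD, n = 4 and 9), with a log2 fold change of 2.43 (SE 0.99, edgeR adjusted p = 0.144). Against Ccnd2 non-MCL the log2 fold change was 2.0 (SE 1.44, edgeR adjusted p = 0.515), and 4.42 without Ccnd2 non-MCL replicate 3 (adjusted p = 0.272). Egr2 lay between 0.8 and 7.2 CPM in MCL-like transplants (median 4.4) and had 0.6, 2.7, 1.6 and 4.6 CPM in MCL-like primaries. It had no count in Ccnd2 non-MCL primaries 1 and 2 and 1.7 CPM in replicate 3, and lay between 0 and 4.6 CPM in p53-only libraries (median 1.4), so that the groups overlapped.

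Junb (chr8:84974484-84978718, minus strand) and Jun (chr4:95049034-95052222, minus strand) encode AP-1 subunits that pair with FOS proteins, and Junb lay within a narrow range across MCL-like primaries. It had 60.4, 57.8, 51.6 and 67.7 CPM there. MCL-like transplants lay between 31.9 and 129 CPM, with a median of 89.3, and Ccnd2 non-MCL transplants had 23.3 and 76.5 CPM. Ccnd2 non-MCL primaries had 15.96, 12.6 and 51.4 CPM, the last just under the lowest MCL-like primary, and p53-only libraries lay between 20.2 and 99.1 CPM (median 30.5). Junb averaged 62.6 ± 6.92 TMM-scaled CPM in MCL-like primaries, against 25.2 ± 19.1 CPM in Ccnd2 non-MCL primaries (SD, n = 4 and 3), with a log2 fold change of 1.30 (SE 0.61, edgeR adjusted p = 0.302). With the oTP tumours left out it was 2.16 and called (edgeR adjusted p = 0.0483), and over all alternatives the adjusted p lay between 0.0483 and 0.552. Junb overlaps Prdx2 on the opposite strand, which had 19024 counts, and the strand setting of the counting is not stated, so its counts may hold reads of Prdx2. Jun likewise overlaps Junos on the opposite strand, which had 113 counts, and the counts of Jun may hold reads of it. Prdx2 lay between 134 and 351 CPM in MCL-like primaries and between 171 and 276 CPM in Ccnd2 non-MCL primaries.

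Jun was high in some tumours and low in others of either immunophenotype. It had 35.6, 61.3, 75.7, 95.7, 96.6 and 21.2 CPM in MCL-like transplants 1 to 6, and 61.6, 11.0, 27.5 and 81.7 CPM in MCL-like primaries. It had 69.4, 67.4 and 12.3 CPM in the Ccnd2 non-MCL primaries, and between 6.1 and 37.1 CPM in p53-only libraries (median 11.6). The groups overlapped, because Ccnd2 non-MCL replicate 3 and MCL-like replicates 2 and 3 lay within the p53-only range. Ccnd2 non-MCL primaries averaged 49.1 ± 32.8 TMM-scaled CPM and p53-only primaries 16.6 ± 13 (SD, n = 3 and 6), with a log2 fold change of 1.56 (SE 0.69, edgeR adjusted p = 0.468). MCL-like against Ccnd2 non-MCL gave -0.06 (SE 0.77, edgeR adjusted p = 0.981).

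Fos (chr12:85473890-85477273, plus strand) and Fosb (chr7:19302696-19310051, minus strand) encode the partners of the JUN proteins in AP-1, and both were low everywhere. Fos lay between 0 and 4.6 CPM in MCL-like transplants (median 2.3), had 0.6, 0.8, 0.3 and 4.8 CPM in MCL-like primaries, 0.4, 0.9 and 1.8 CPM in Ccnd2 non-MCL primaries, and lay between 0 and 5.0 CPM in p53-only libraries (median 2.0). All groups overlapped. Fosb lay between 4.4 and 7.9 CPM in MCL-like transplants (median 7.4), had 2.7, 3.4, 3.2 and 6.7 CPM in MCL-like primaries and 0.4, 4.2 and 3.2 CPM in Ccnd2 non-MCL primaries, and lay between 0.3 and 2.7 CPM in p53-only libraries (median 1.8). Against all non-MCL mice the Fosb log2 fold change was 1.17 (SE 0.63, edgeR adjusted p = 0.258), and the Fos value was -0.33 (SE 0.89, edgeR adjusted p = 0.848).

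Dusp2 (chr2:127336159-127338376, plus strand) encodes a nuclear phosphatase that removes the activating phosphates of MAP kinases, and its values ran in the other direction. It had 32.1, 59.6, 82.3, 74.1, 99.0 and 340 CPM in MCL-like transplants 1 to 6, and 57.7, 97.9, 114 and 86.8 CPM in MCL-like primaries. It had 194 and 209 CPM in the Ccnd2 non-MCL transplants, and 94.7, 94.1 and 348 CPM in Ccnd2 non-MCL primaries. The p53-only libraries lay between 102 and 454 CPM, with a median of 238. MCL-like primaries overlapped both non-MCL groups at their lower ends. Against all non-MCL mice, Dusp2 averaged 96.3 ± 25.6 TMM-scaled CPM in MCL-like primaries, against 205.9 ± 96.4 CPM in non-MCL primaries (SD, n = 4 and 9). The log2 fold change was -1.10 (SE 0.39, edgeR adjusted p = 0.102), and it was -0.60 (adjusted p = 0.424) with the oTP tumours, all of them non-MCL, left out. DESeq2 called it (-1.08, adjusted p = 0.0425), in a run that called 13.7% of all genes. Over all alternatives the adjusted p lay between 0.0425 and 0.424. Against Ccnd2 non-MCL alone the log2 fold change was -0.85 (SE 0.47, edgeR adjusted p = 0.38), and it was 0.06 without Ccnd2 non-MCL replicate 3.

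Across the 13 primary mice Nr4a1 fell into separate ranges, from 13.1 to 30.1 TMM-scaled CPM in 6 mice and from 0 to 4.56 CPM in the other 7. The 6 were MCL-like replicates 2, 3 and 4, Ccnd2 non-MCL replicate 3, and the p53-only mice of replicates 2 and 3, so every primary group had members in each range. Each of these 6 mice had a spleen library, and p53-only replicate 5, of the same mouse as replicate 2, came from another site. Of the other 7, Ccnd2 non-MCL replicate 2 and p53-only replicate 1 were from spleen. MCL-like replicate 1, Ccnd2 non-MCL replicate 1 and p53-only replicates 4, 6 and 7 were from sites other than spleen. The part of site in these ranges was not tested. The ranges were split at the largest gap in Nr4a1 on log2(CPM + 1). The 6 mice with higher Nr4a1 were also the 6 highest for Egr2 and for Egr3. For Egr2 the margin was small, 1.58 CPM in Ccnd2 non-MCL replicate 3 (14 counts) against 1.41 CPM in p53-only replicate 6 (7 counts). The same 6 mice supplied 5 of the 6 highest for Nr4a3, Egr1 and Junb, 4 of 6 for Fos and Fosb, and 3 of 6 for Jun and Dusp2. Such sharing was not counted over all genes, so these counts carry no test. Because of the separate ranges no correlation with Nr4a1 over all 13 mice is given. Within the 6 mice, Spearman's rho with Nr4a1 over the 9 other genes lay between -0.71 (Fos) and 0.54 (Nr4a3), Pearson's r lay between -0.87 (Fos) and 0.51 (Nr4a3), and the lowest adjusted p of the exact permutation tests was 0.8 for rho and 0.3 for r. Within the 7 mice, rho lay between -0.43 (Jun) and 0.54 (Egr1 and Junb), r lay between -0.54 (Jun) and 0.47 (Junb), and the lowest adjusted p of the exact permutation tests was 0.906 for rho and 0.936 for r. The tests were two-sided, and 18 relations were computed, adjusted over 9 in each range. No relation was therefore shown within either range.

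**Figure D3:**
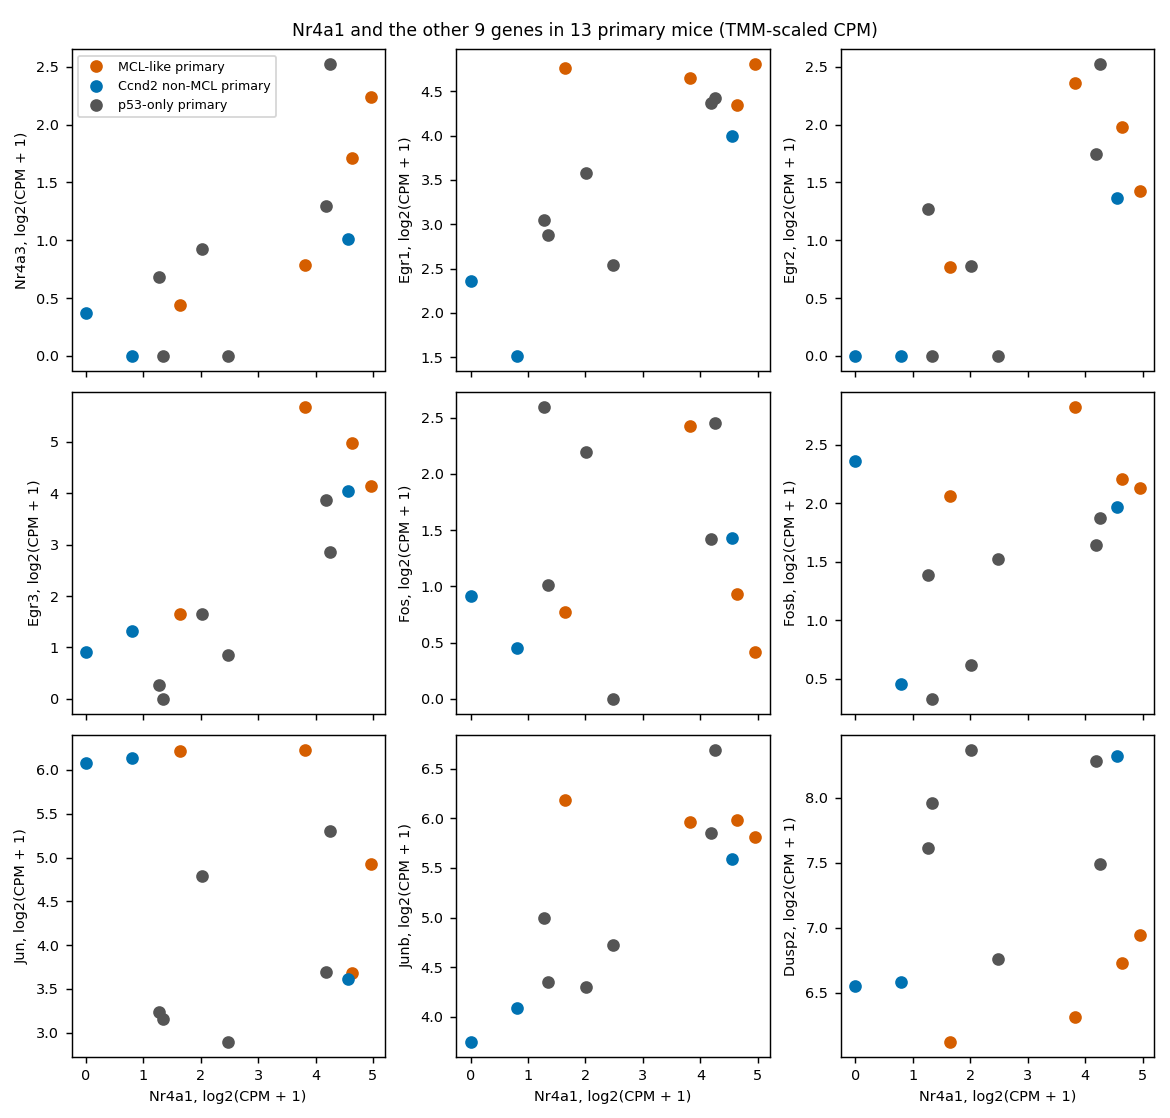
Nr4a1 (x axis) and each of the other 9 genes (y axis) as log2(TMM-scaled CPM + 1), with 1 point for each of the 13 primary mice. Egr2 and Egr3 are highest in the same 6 mice as Nr4a1, while Jun, Fos and Dusp2 are spread over both ranges.

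Vpreb1, which encodes part of the surrogate light chain of pre-B cells, moved partly with these ranges. It had 1.69, 1.90 and 224 CPM in MCL-like replicates 2, 3 and 4, 2424 CPM in Ccnd2 non-MCL replicate 3, 3.47 and 5.45 CPM in p53-only replicates 2 and 5, and 2.02 CPM in p53-only replicate 3, all tumours with high Nr4a1. In the tumours with low Nr4a1 it had 0.892 CPM in MCL-like replicate 1, 5231 and 5691 CPM in Ccnd2 non-MCL replicates 1 and 2, and 4.82, 5132, 458 and 2879 CPM in p53-only replicates 1, 4, 6 and 7. High and low Vpreb1 thus occurred in both ranges of Nr4a1. Between the primary groups of the same genotype it did not overlap, at 0.892 to 224 CPM in MCL-like and 2424 to 5691 CPM in Ccnd2 non-MCL. In that comparison the level of Vpreb1 and the immunophenotype label cannot be told apart. The part of this pre-B gene in the results was not tested.

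The genes whose pattern was most like the mean of the 10 genes included several of T cells. Over the 13 primary mice, and among 9076 other genes with a mean of at least 10 CPM, the highest Spearman's rho was 0.93 for Trbc2 and Traj18, parts of the T cell receptor loci. Gbp8, an interferon-induced GTPase gene, had 0.92, and Cd83 and Cd86, which encode surface proteins of activated antigen-presenting cells, had 0.91. Cd27, a costimulatory receptor gene, Trac, the T cell receptor alpha constant gene, and Cnr2, a cannabinoid receptor gene of B cells, had 0.90. These values are the top of a ranking and carry no test. The members' mean, on log2(CPM + 1), was split as Nr4a1 was. It was 3.59 to 4.10 in the 6 mice with higher Nr4a1 and 2.10 to 3.06 in the other 7. A gene that separates these sets of mice has a high rho here even without a graded relation within them. They also compare libraries that differ in their content of other cells.

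Trbc2 had 3.96, 12.4, 15.7, 16.1, 14.8 and 0 CPM in MCL-like transplants 1 to 6, and 13.7, 139, 208 and 105 CPM in MCL-like primaries 1 to 4. It had 3.34, 6.30 and 23.1 CPM in Ccnd2 non-MCL primaries, and between 0.275 and 241 CPM in p53-only libraries (median 27.1). Among primaries, the mice with high Nr4a1 were thus also those with the most Trbc2, apart from p53-only replicate 7 (27.1 CPM), which exceeded Ccnd2 non-MCL replicate 3. All 9 T cell markers had positive log2 fold changes in MCL-like against Ccnd2 non-MCL primaries (median 3.14). None of them was called by edgeR, and 4 had an unadjusted p under 0.05, as did 16.8% of all genes. Against all non-MCL mice all 9 were positive as well (median 1.56), with none called by edgeR. An unadjusted p under 0.05 was found for 2 of the 9, and for 25% of all genes. The part of T cells in the levels of the 10 genes in primary tumours was not tested. MCL-like transplant 6 had no count of Trbc2, which allows up to 0.539 CPM (3 counts of the total), 1 count of Cd3e (0.18 CPM) and 38 counts of Trac (6.83 CPM). Of the 9 T cell markers 7 had a count there and together they came to 76.2 CPM, of which Lck, a kinase gene that some B cells also use, made up 66.9 CPM.

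**Figure D4:**
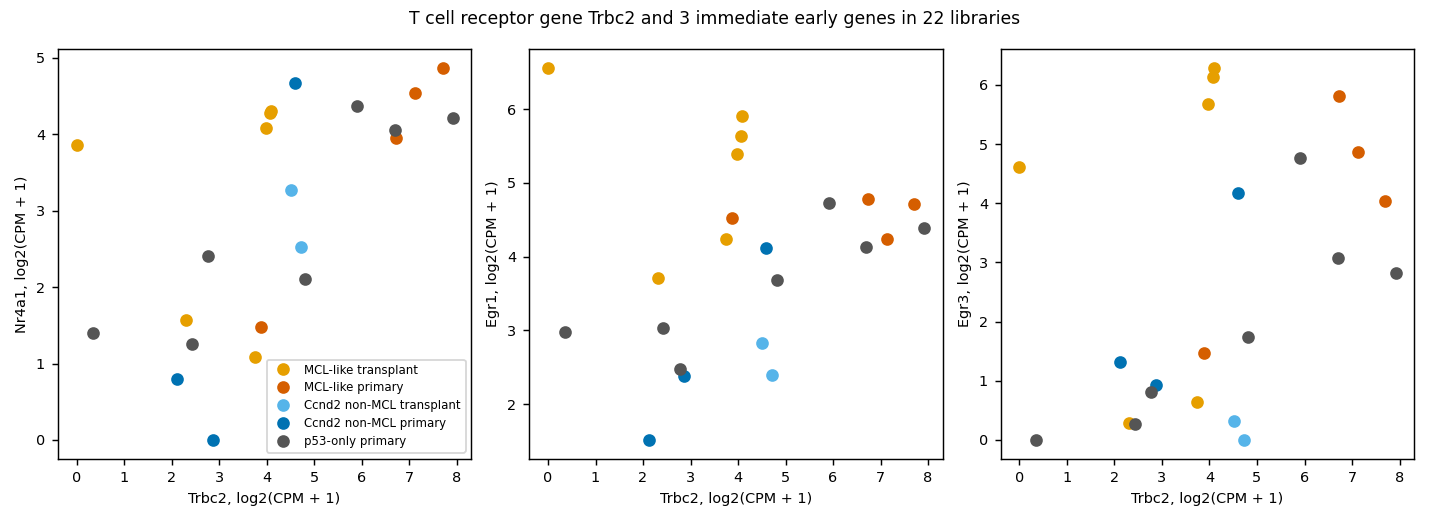
Trbc2 (x axis) against Nr4a1, Egr1 and Egr3 (y axes) as log2(CPM + 1) in the 22 libraries. The primary tumours with the most Trbc2 have high Nr4a1, and the MCL-like transplants lie between 0 and 16.1 CPM of Trbc2.

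Between MCL-like transplants and primaries of the same mice no member passed the test, and mouse 1 had the lowest Nr4a1 and Egr3 both in transplants and in the primary. Of 8 tested members, 2 (Egr2 and Fosb) were higher in all 3 mice, where 14.2% of 12020 genes were. Egr2 averaged 4.47 ± 3.09 TMM-scaled CPM in transplants and 2.37 ± 1.53 CPM in primaries (SD, n = 3 mice each), with a log2 fold change of 0.84 (SE 0.66, edgeR adjusted p = 0.847 with mouse as a block). Fosb averaged 6.87 ± 0.878 CPM in transplants and 3.94 ± 1.26 CPM in primaries, with a log2 fold change of 0.83 (SE 0.55, edgeR adjusted p = 0.823). Egr1 averaged 56.1 ± 41.0 CPM in transplants and 21.4 ± 3.28 CPM in primaries, with a log2 fold change of 1.08 (SE 0.66, edgeR adjusted p = 0.82). Egr1 was higher in the transplants of mice 2 and 4 and lower in those of mouse 1. The primary of mouse 1 came from a site other than spleen. Its transplants, and all libraries of mice 2 and 4, were from spleen, and the part of site was not tested. Nr4a1 gave -0.05 (SE 0.45, edgeR adjusted p = 0.982) and Egr3 -0.15 (SE 0.49, edgeR adjusted p = 0.943). MCL-like mouse 1 had 2.0 and 1.1 CPM of Nr4a1 in its transplants and 1.8 CPM in its primary, whereas mouse 4 had 18.4 and 18.7 CPM in its transplants and 14.5 CPM in its primary. Over the same mice the 9 T cell markers all had negative log2 fold changes (median -2.52). None was called by edgeR, and 5 had an unadjusted p under 0.05, as did 5.46% of all genes. This was not particular to T cells. No tested marker of the NK cell, macrophage, neutrophil, erythroid or stromal lists was positive (medians -2.80, -0.91, -1.12, -3.62 and -0.84, in that order). Of the 9 B cell markers 1 was positive (median -0.53).

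**Figure D5:**
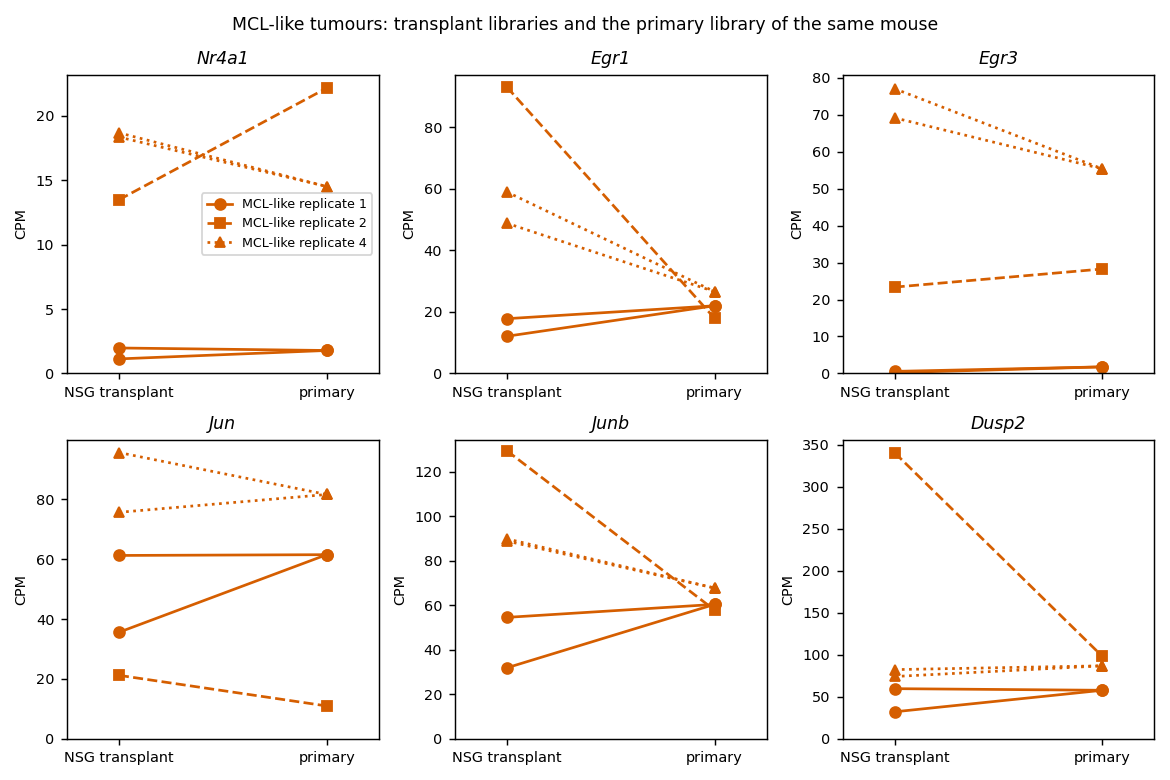
CPM (y axis) of 6 of the genes in NSG transplant libraries (left) and the primary library (right) of the same 3 MCL-like mice; lines join libraries of 1 mouse. Nr4a1 and Egr3 stay low in mouse 1, and Egr1, Junb and Dusp2 are highest in the transplant of mouse 2.

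Pairs of libraries from 1 mouse show how far the genes vary without a change of group. The Ccnd2 non-MCL tumour grew in a pair of NSG hosts, and Jun had 16.7 CPM (63 counts) in one and 252 CPM (993 counts) in the other. This difference of 3.84 in log2(CPM + 1) was reached by 72 of 8207 genes (0.877%), whereas 24.1% of genes differed more than 2-fold. Fos (0.794 and 7.37 CPM) and Junb (23.3 and 76.5 CPM) were higher in the same host, as were Nr4a1 (4.76 and 8.64 CPM) and Egr1 (4.23 and 6.10 CPM) by less, and Dusp2 had 194 and 209 CPM. Without replicates for each host no test was made. MCL-like transplants 3 and 4, from 1 mouse, were close for every one of the 10 genes (0.534% of all genes more than 2-fold apart), with the widest gap at Nr4a3, 3.28 and 1.64 CPM. MCL-like transplants 1 and 2 differed by less than 2-fold, on log2(CPM + 1), for all 10 genes, where 8.33% of all genes exceeded it. The p53-only pair, from a spleen and another site, had 7.43 and 26.2 CPM of Egr3 and 238 and 454 CPM of Dusp2, but 12.1 and 11.6 CPM of Jun (18.3% of all genes more than 2-fold apart).

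Of 39 further early response genes 34 were tested in MCL-like against Ccnd2 non-MCL primaries, and only Rgs2 was called, where edgeR called 0.308% of all genes. An unadjusted p under 0.05 was found for 7 of the 34, and for 16.8% of all genes. Rgs2, which speeds the shut-off of G protein signals, averaged 58.0 ± 14.8 CPM in MCL-like primaries, against 312 ± 3.18 CPM in Ccnd2 non-MCL primaries (SD, n = 4 and 3), a log2 fold change of -2.43 (SE 0.45, edgeR adjusted p = 0.0484). That call was lost when any 1 of the 7 mice of these groups, or p53-only replicate 4 or 6, was left out (edgeR adjusted p up to 0.135). Against all non-MCL mice 33 were tested, 2 were called higher and 1 lower, and 5.51% of all genes were called. Of these 33, 11 had an unadjusted p under 0.05, as did 25% of all genes. Nfkbid, an atypical inhibitor of NF-kB that B cell receptor signals induce, averaged 67.8 ± 20.1 CPM in MCL-like primaries, against 16.8 ± 12.2 CPM in non-MCL primaries (log2 fold change 2.0, SE 0.41, edgeR adjusted p = 0.0148). Dusp10, a phosphatase gene for stress-activated MAP kinases, averaged 16.7 ± 7.20 CPM in MCL-like primaries, against 3.84 ± 2.67 CPM in non-MCL primaries (2.09, SE 0.54, edgeR adjusted p = 0.0384), and Rgs2 gave -2.30 (SE 0.39, edgeR adjusted p = 0.00817). Leaving out MCL-like replicate 4 ended the call of Nfkbid (edgeR adjusted p = 0.0688), and leaving out any 1 MCL-like mouse, Ccnd2 non-MCL replicate 1, or p53-only replicate 4 or 6 ended that of Dusp10 (up to 0.132). Neither of the other comparisons called any of them with edgeR, and each had 2 at an unadjusted p under 0.05. Over all genes that share was 10.3% in Ccnd2 non-MCL against p53-only and 5.46% in transplants against primaries. Cd69 and Nr4a2, commonly used with the 10 genes as marks of recent activation, had log2 fold changes of 0.09 (SE 0.81, edgeR adjusted p = 0.953) and -0.08 (SE 0.82, edgeR adjusted p = 0.96) against all non-MCL mice, and were picked here after their values were seen.

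Upstream of the 10 genes, 45 genes lead from the receptor to the MAP kinases and calcium, and all were tested. None was called against Ccnd2 non-MCL (11 had an unadjusted p under 0.05, against 16.8% of all genes), and 5 were called higher and none lower against all non-MCL mice, where 5.51% of all genes were called. In the latter 19 of the 45 had an unadjusted p under 0.05, against 25% of all genes. Nfatc1, the calcium-dependent transcription factor gene, averaged 357 ± 213 CPM in MCL-like primaries, against 59.4 ± 37.7 CPM in non-MCL primaries (log2 fold change 2.59, SE 0.48, edgeR adjusted p = 0.0113). Cd81, a tetraspanin gene, gave 1.57 (SE 0.25, edgeR adjusted p = 0.00644). Itpr1, a calcium release channel gene, gave 1.54 (SE 0.31, edgeR adjusted p = 0.0135), and Lyn, a receptor-proximal kinase gene, gave 1.30 (SE 0.27, edgeR adjusted p = 0.0166). Sos1, which encodes an activator of Ras, gave 0.95 (SE 0.24, edgeR adjusted p = 0.0353). The call of Sos1 was lost without any 1 MCL-like mouse, Ccnd2 non-MCL replicate 1, or p53-only replicate 4 or 6 (edgeR adjusted p up to 0.119). That of Lyn was lost without MCL-like replicate 1, 2 or 3 (up to 0.0599) and that of Itpr1 without MCL-like replicate 4 (0.052). Of 21 negative regulators only Pag1, which encodes an adaptor that holds the kinase CSK at the membrane, was called. Pag1 averaged 18.0 ± 2.49 CPM in MCL-like primaries, against 59.4 ± 8.20 CPM in Ccnd2 non-MCL primaries (log2 fold change -1.72, SE 0.31, edgeR adjusted p = 0.0478). That call was lost when any 1 of the 7 mice of these groups, or p53-only replicate 6 or 7, was left out (edgeR adjusted p up to 0.135). Pag1 was also lower against all non-MCL mice (-1.55, SE 0.26, edgeR adjusted p = 0.00817), a call kept in all 13 fits that left out 1 mouse. Of 13 heat shock genes, which respond to the handling of cells, 12 were tested against Ccnd2 non-MCL and 11 against all non-MCL mice. None was called by edgeR, and 1 and 0 had an unadjusted p under 0.05, against 16.8% and 25% of all genes. Positive log2 fold changes were found for 7 of 12 against Ccnd2 non-MCL (median 0.05, all genes -0.04). Against all non-MCL mice 2 of 11 were positive (median -0.38, all genes -0.07). In Ccnd2 non-MCL against p53-only, 1 of 12 was positive (median -0.39, all genes -0.04). In transplants against primaries 11 of 12 were positive (median 0.47, all genes 0.01), and 4 were higher in all 3 mice, where 14.2% of all genes were. None was called by edgeR in these either.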

How the data were processed

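Libraries were made with a reverse 3' mRNA kit, per the labels' protocols, and the submitters' processing notes name FastQC, STAR and the build GRCm38. Which program counted the reads, and with what strand setting, is not stated in these sources. The authors deposited raw counts per Ensembl gene, used as deposited. GENCODE M21 named 52403 of the 52636 identifiers. Libraries of 1 mouse and origin were summed. Comparisons used edgeR 4.0.16 in R 4.3.3 (quasi-likelihood F test, TMM, default low-count filter, robust shrinkage, Benjamini-Hochberg, called under 0.05), and the SE is the absolute log2 fold change over the square root of F. The 13 primary mice shared a fit of 3 groups, or of 2 for all non-MCL. Transplants of 3 mice were compared with mouse as a block, since the labels name each transplant's primary mouse; deviations from group means correlated at 0.263, 0.274 and 0.363 within mice over 12020 genes. No pair of libraries agreed within sampling noise. Separate tumours came from separate mice, so p-values measure the spread between mice.

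Motifs and permutation tests used Python 3.11.15 with numpy 2.4.6, and the code was tested on simulated data. The correlation planned over 13 mice was replaced, after the data were seen, by correlations within the separate ranges of Nr4a1. The 10 genes and all lists were chosen with earlier results of these data known. Genes outside the 10 were named if called in a list (up to 6 per list and comparison) or among the 8 most like the members' mean on log2(CPM + 1). Cd69, Nr4a2, Lck, Cd3e and Vpreb1 were named outside this rule, and Vpreb1 was in none of the lists. Prdx2 and Junos were named because they overlap Junb and Jun. Alternatives were other scalings, DESeq2 1.42.0, no filter, oTP tumours left out or as a covariate, spleen libraries only, libraries as samples, only the compared groups, no block, and leaving out each mouse.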

Additional observations from a re-analysis of the deposited data

Results flagged for a closer look

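Among 30 sets of values (10 genes in 3 groups, of 4, 6 and 4 mice) that were searched for 1 mouse far from the others, 2 held one, and chance alone marks about 1 in 20 groups. In p53-only tumours, Nr4a3 had 4.61 CPM in replicate 3, and the nearest of the other 5 mice had 1.45 CPM. That gap was 0.686 of the group's range. In MCL-like primaries, Fos had 4.84 CPM in replicate 4, and the nearest of the other 3 mice had 0.844 CPM, a gap of 0.883 of the range.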

How the results depend on the processing

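The calls of the members kept their side of the threshold in all alternatives except 3: Egr1 and Junb in MCL-like against Ccnd2 non-MCL without the oTP tumours, and Dusp2 against all non-MCL with DESeq2. Counts over all genes moved more. In MCL-like against Ccnd2 non-MCL, 40 genes were called, with 22 under RLE scaling, 847 with DESeq2, 552 without oTP tumours, 19 with the prefix as a covariate, 116 with spleen libraries only, 13 with libraries as samples, 371 with only the groups compared, and 0 to 54 when 1 mouse was left out. Against all non-MCL, 685 were called, with 1698 under DESeq2, 246 without oTP tumours, 224 with the covariate, 39 in spleen, and 176 to 1065 when 1 mouse was left out. In Ccnd2 non-MCL against p53-only, 0 were called, with 119 under DESeq2, 2 without the filter, 116 without oTP tumours, 1 with the covariate, 41 in spleen, and 0 to 8 when 1 mouse was left out. In transplants, 0 were called, with 31 under DESeq2, 35 without the filter, 0 without the replicate block, and 0 to 14 when 1 mouse was left out. Scaling by library size alone moved the median of all genes to -0.16, -0.22 and -0.10 (transplants), and called 2 genes higher and 31 lower (8 and 32 under TMM) and 298 higher and 447 lower (387 and 298).

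These log2 fold changes turned round, and the cause was not tested. In MCL-like against Ccnd2 non-MCL, Dusp2 was 0.02 without oTP tumours, and when 1 mouse was left out Dusp2 lay between -1.15 and 0.06, Jun between -0.48 and 0.28, and Fos between -0.59 and 1.34. Against all non-MCL, Fos was 0.16 with the covariate. In Ccnd2 non-MCL against p53-only, Nr4a1 was -5.13 without oTP tumours, -0.16 in spleen and -0.18 with libraries as samples, and lay between -4.38 and 0.66 when 1 mouse was left out. Egr3 was -2.06 without oTP tumours and lay between -1.73 and 1.75, and Dusp2 was 0.22 in spleen. In transplants, Egr3 was 0.41 without the replicate block and lay between -0.99 and 0.24 when 1 mouse was left out, Nr4a1 between -0.49 and 0.32, Jun between -0.02 and 0.66, and Dusp2 between -0.12 and 1.0. Under the other member alternatives the direction and call stayed. The 2 alternatives planned for the correlation over 13 mice were not run, as no such correlation is given. Low counts limit Nr4a3, Egr2, Fos and Fosb.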
